A study of Homo sapiens with 8 samples.

Results

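The 38 genes described here are targets of the hypoxia-inducible factors (HIF) and enzymes of glycolysis, taken from a fixed list of symbols. All 38 had a row among the 18555 genes of the count table, and all 38 were among the 14337 genes that passed the filter on low counts. RNA-seq counted reads per gene in 6 libraries from cells labelled HepG2, a line derived from a human liver tumour. The 3 siNC libraries came from cells transfected with the Allstar control siRNA, and the 3 siXBP1 libraries from cells given an siRNA specific for XBP1. All 6 then received thapsigargin at 30 nM, for 3 hours, starting 2 days after transfection, so the comparison concerns less XBP1 under stress of the endoplasmic reticulum (ER). Thapsigargin blocks the calcium pump of the ER, and XBP1 encodes a transcription factor of the unfolded protein response. ChIP-seq of XBP1s, with 2 samples, was not analysed here.

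HIF is a pair of proteins, an oxygen-labile alpha subunit (HIF1A or EPAS1) and the stable subunit ARNT. When oxygen is present, prolyl hydroxylases of the EGLN family mark the alpha subunit for destruction through VHL. When oxygen is short, HIF accumulates and raises transcription of glucose transporters, nearly every glycolytic enzyme, angiogenic factors and its own hydroxylases. Tumour cells often keep this programme high even with oxygen, turning glucose into lactate.

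HIF binds DNA at a short core, ACGTG or GCGTG, and the core of the XBP1s site, GACGTG, contains ACGTG. Both cores were searched on both strands in the RefSeq promoter window of each gene (GRCh38.p14), 250 bases before to 50 bases after 1 annotated start. The window was read for 33 of the 38 genes, all but SLC2A3, VEGFA, BNIP3L, NDRG1 and HILPDA. Genes with several starts are represented by 1 of them. A HIF core occurred in 24 of the 33 windows, or 72.7%, against 62.4% of the 11290 windows of tested genes and 48.4% of all 27305 windows. ACGTG alone occurred in 16 windows (48.5%, against 26.4% of tested genes), and GCGTG in 14 (42.4%, against 50.2%). GACGTG, which overlaps ACGTG by definition, was in 6 windows (18.2%, against 10.4%): those of ANGPTL4, HK2, ALDOA, PGK1, LDHA and PLOD2. CACGTG, which reads as ACGTG on both strands, was in 5 (15.2%, against 9.96%). The ER stress element was in 0 windows of these genes and in 0.124% of those of tested genes. It consists of CCAAT, 9 bases of any kind and CCACG. The windows held a median of 28 CG pairs, against 26 for tested genes, and a median of 69.7% G and C, against 65%. The part of this composition in the shares above was not tested. A match is a string of letters and does not show that a factor binds.

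The 250 bases before the start are shown for 8 of these 33 genes, 5′ to 3′ on the strand of the gene, with HIF cores in capitals. On the opposite strand the cores read CACGT and CACGC. CA9 and BNIP3 lay lower in every siXBP1 library than in any siNC library, LDHA and PGK1 are glycolytic enzymes, and PLOD2 and LOX were highest in siXBP1 replicate 3. PFKP and PDK1, whose groups also did not overlap, held no core in this window.
CA9, chr9:35673678-35673927, plus strand: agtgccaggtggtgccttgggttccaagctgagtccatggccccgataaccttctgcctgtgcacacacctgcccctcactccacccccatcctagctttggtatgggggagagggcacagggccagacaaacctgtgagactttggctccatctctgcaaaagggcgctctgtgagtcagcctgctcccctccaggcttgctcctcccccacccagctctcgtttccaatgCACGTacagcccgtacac
BNIP3, chr10:131981924-131982173, minus strand: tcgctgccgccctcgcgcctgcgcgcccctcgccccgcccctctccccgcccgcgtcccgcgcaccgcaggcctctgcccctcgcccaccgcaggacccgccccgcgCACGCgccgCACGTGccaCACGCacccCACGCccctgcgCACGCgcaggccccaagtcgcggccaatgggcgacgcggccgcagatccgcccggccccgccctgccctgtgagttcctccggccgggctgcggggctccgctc
LDHA, chr11:18394313-18394562, plus strand: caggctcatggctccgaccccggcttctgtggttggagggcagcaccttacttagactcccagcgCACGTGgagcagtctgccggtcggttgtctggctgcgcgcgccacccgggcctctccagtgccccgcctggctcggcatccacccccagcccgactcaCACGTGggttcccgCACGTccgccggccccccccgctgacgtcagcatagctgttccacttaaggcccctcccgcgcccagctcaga
PGK1, chrX:78103998-78104247, plus strand: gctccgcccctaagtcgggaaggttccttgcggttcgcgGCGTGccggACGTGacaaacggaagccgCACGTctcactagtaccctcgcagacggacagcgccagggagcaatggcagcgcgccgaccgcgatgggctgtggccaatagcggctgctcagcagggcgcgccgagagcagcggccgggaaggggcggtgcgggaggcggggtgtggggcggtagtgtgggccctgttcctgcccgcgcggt
PLOD2, chr3:146161185-146161434, minus strand: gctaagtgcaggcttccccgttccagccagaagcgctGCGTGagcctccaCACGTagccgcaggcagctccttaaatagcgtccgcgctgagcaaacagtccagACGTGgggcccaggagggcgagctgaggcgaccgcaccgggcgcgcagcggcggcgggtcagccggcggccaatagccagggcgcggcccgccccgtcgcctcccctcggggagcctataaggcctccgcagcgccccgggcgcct
LOX, chr5:122078260-122078509, minus strand: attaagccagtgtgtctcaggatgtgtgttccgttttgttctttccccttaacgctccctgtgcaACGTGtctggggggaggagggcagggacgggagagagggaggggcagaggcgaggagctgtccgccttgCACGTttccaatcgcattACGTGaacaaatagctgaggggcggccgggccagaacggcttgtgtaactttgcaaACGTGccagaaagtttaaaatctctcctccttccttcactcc
PFKP, chr10:3067720-3067969, plus strand: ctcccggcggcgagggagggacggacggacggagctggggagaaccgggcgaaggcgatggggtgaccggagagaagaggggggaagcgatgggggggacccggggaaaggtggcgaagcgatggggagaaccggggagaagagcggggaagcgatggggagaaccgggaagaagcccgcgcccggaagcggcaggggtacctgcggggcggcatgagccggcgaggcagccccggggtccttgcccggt
PDK1, chr2:172555123-172555372, plus strand: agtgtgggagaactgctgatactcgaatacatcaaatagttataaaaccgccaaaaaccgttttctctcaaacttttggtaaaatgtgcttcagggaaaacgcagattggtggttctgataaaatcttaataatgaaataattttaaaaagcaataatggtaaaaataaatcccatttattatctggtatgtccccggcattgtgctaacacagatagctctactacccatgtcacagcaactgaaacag

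Library totals lay between 38209972 and 38890070 counts, so that 3 counts correspond to 0.0771 to 0.0785 CPM (counts scaled to a common library total). XBP1 had 552, 501 and 499.6 CPM in siNC replicates 1 to 3 and 290, 299 and 276 CPM in siXBP1 replicates 1 to 3. Its mean in siXBP1 was thus 55.7% of that in siNC, a log2 fold change of -0.84 with an SE of 0.08 (edgeR adjusted p = 0.0331). It was the only gene past the threshold of 0.05 in edgeR's quasi-likelihood test, or 0.00697% of the genes tested. Hepatocyte markers did not bear out the label of the line. Of 15 such markers 9 had a row, and ALB, APOA1, APOB, TTR, FGB and FOXA2 had none. Of the 9, 7 were below 1 CPM on average, among them AFP (0.0431 CPM), TF (0.0518), SERPINA1 (0.112) and HNF4A (0.385), while CPS1 had 1077 CPM. Summed hepatocyte markers ran from 1026 to 1214 CPM in siNC and from 972 to 1146 in siXBP1, nearly all of it CPS1. Summed markers of other epithelial lines, mostly KRT17 and KRT7, ran from 4264 to 5685 and from 4170 to 5297 CPM. Only 3 of these 7 markers averaged at least 1 CPM, and KRT5 (0.0171 CPM), EPCAM (0.0257), CDH1 (0.38) and KRT19 (0.578) did not. Of 7 fibroblast markers 6 had a row, and PDGFRA had none. Of the 6, 5 averaged at least 1 CPM, with sums from 323 to 340.5 CPM in siNC and from 346 to 353 in siXBP1. The markers thus do not settle the cell type. The first principal component of all other genes held 59.3% of the variance and set siNC replicate 1 (0.64) against siXBP1 replicate 3 (-0.65), with the other 4 libraries from -0.29 to 0.243. These are called the end libraries and the 4 middle libraries below.

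Of the 38 genes 0 passed edgeR's test, yet 34 of them had an estimate below 0 in siXBP1, against 47.2% of all genes tested. Their median log2 fold change was -0.12, against 0.01 over all genes tested, and single estimates ran from -0.55 for EGLN3 to 0.14 for EGLN1. The adjusted p was 1 for every one of them. At an unadjusted p under 0.05 there were 4 genes, all with lower estimates: SLC2A3, CA9, BNIP3 and EGLN3 (10.5% of the 38, against 1.70% of all genes on the lower side and 1.90% on the higher side). DESeq2 and limma-voom also called 0 of the 38. In CPM the groups did not overlap for 5 genes, all lower in siXBP1: SLC2A3, CA9, BNIP3, PFKP and PDK1 (13.2%, against 3.74% of all genes on the lower and 5.01% on the higher side). In bulk RNA, fewer cells of a type and less RNA per cell cannot be told apart. Whether the replicates came from different dishes is not stated in the labels, and the spread behind each p-value may be technical only.

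**Figure D1:**
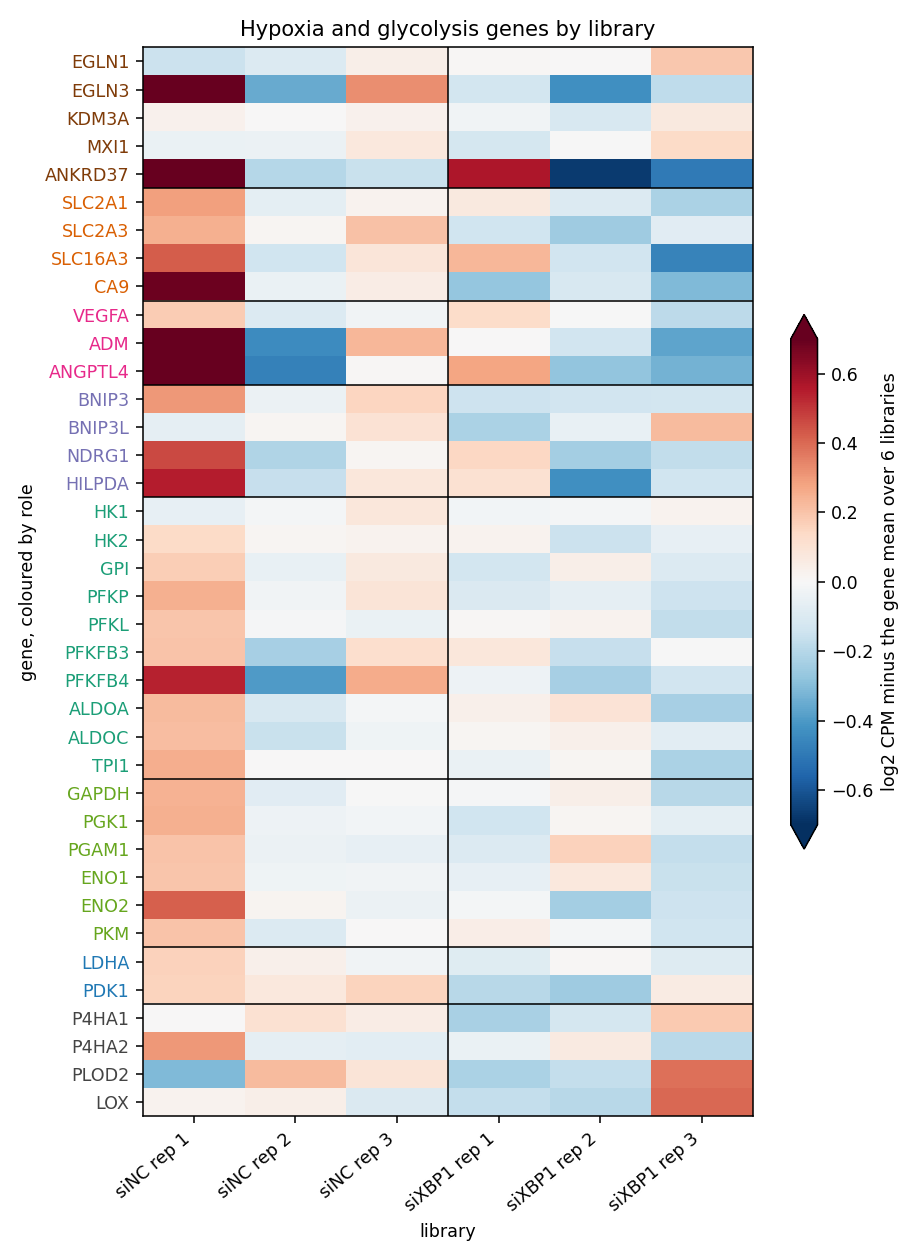
Level of each of the 38 genes in each library, as log2 CPM minus the gene's mean over 6 libraries (red higher, blue lower, colours saturating at 0.7), with genes grouped by role. Replicate 1 of siNC is the highest library for 29 genes, while PLOD2, LOX, P4HA1 and BNIP3L are among those highest in siXBP1 replicate 3.

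The pattern over libraries was uneven. Replicate 1 of siNC was the highest of all 6 libraries for 29 of the 38 genes, against 24.1% of all genes tested. Replicate 3 of siXBP1 was the lowest for 14 of them (36.8%, against 25.9%), and each of these 14 also had siNC replicate 1 as its highest (against 14.3%). The median over the 38 genes of the level relative to each gene's mean was 0.22 (log2 CPM) in siNC replicate 1, -0.04 and 0.03 in siNC replicates 2 and 3. It was -0.03, -0.10 and -0.14 in siXBP1 replicates 1 to 3. Apart from siNC replicate 1 the groups interleaved, with siNC replicate 2 just below siXBP1 replicate 1. Without both end libraries, 21 of the 38 estimates were below 0 (against 48.0% of all genes) and the median was -0.03. Without siNC replicate 1 alone, 26 were below 0 and the median was -0.05.

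**Figure D2:**
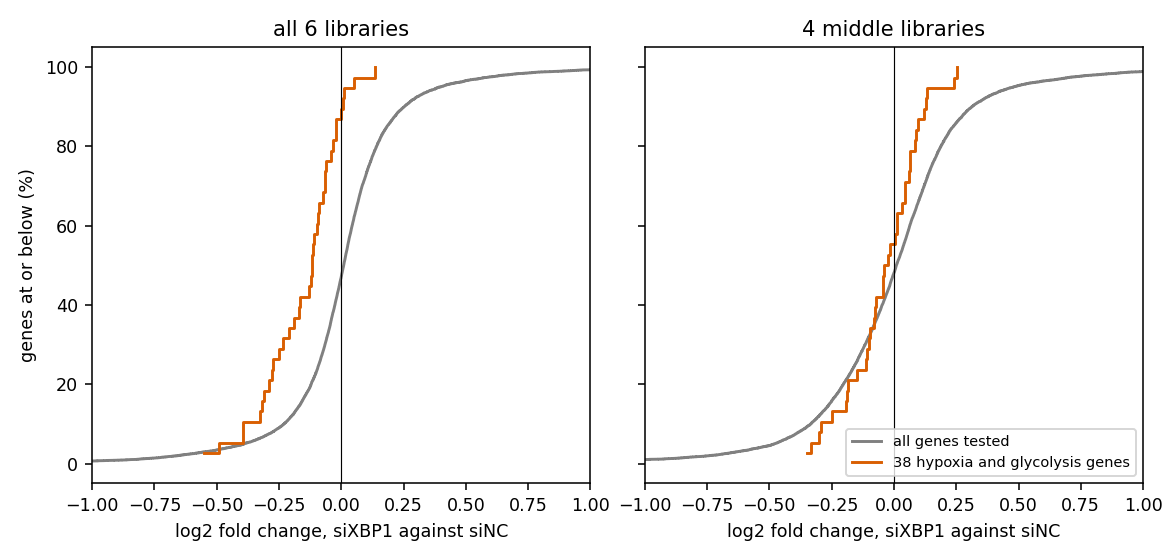
Share of genes (%) at or below each log2 fold change of siXBP1 against siNC, for the 38 genes and for all genes tested, with all 6 libraries (left) and the 4 middle libraries (right). With 6 libraries the median of the 38 genes is -0.12, and with the 4 middle libraries it is -0.03.

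Transport of glucose, lactate and acid held 2 of the 5 genes whose groups did not overlap, and all 4 of its genes had estimates below 0. SLC2A3 encodes the high-affinity glucose transporter GLUT3 (gene on chromosome 12, 7919230 to 7936187). It had 198, 168 and 192 CPM in siNC replicates 1 to 3 and 151, 140.1 and 158 CPM in siXBP1 replicates 1 to 3. Every siXBP1 library lay below every siNC library, and neither end library stood apart from its group. The log2 fold change was -0.31 (SE 0.10, unadjusted p = 0.00974, adjusted p = 1 by edgeR), and it lay between -0.39 and -0.27 with each library left out in turn. When the first component's score entered the fit as a covariate, SLC2A3 fell by 0.30 with an SE of 0.07 (edgeR adjusted p = 0.0195). In the 4 middle libraries it fell by the same 0.30, with an SE of 0.09 (edgeR adjusted p = 0.0387). The fit with the covariate takes the score as known, so its errors may be too small. The fit on 4 libraries, with 2 libraries per group, leaves out the extremes of a component found in these same libraries. Its errors may be too small as well, and it called 3.42% of all genes as lower and 1.45% as higher.

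CA9 encodes carbonic anhydrase IX, an enzyme on the cell surface that handles acid and is a widely used marker of hypoxia (chromosome 9, 35673928 to 35681159). It had 96.8, 58.4 and 62.45 CPM in siNC replicates 1 to 3 and 50, 55.8 and 48.6 CPM in siXBP1 replicates 1 to 3. The groups did not overlap, but siNC replicate 1 stood far above the rest, and siNC replicate 2 was close to the highest siXBP1 library. The log2 fold change was -0.49 (SE 0.18, adjusted p = 1 by edgeR). It was -0.23 without siNC replicate 1 and -0.19 without both end libraries (edgeR adjusted p = 0.331). In the fit with the covariate CA9 fell by 0.37 with an SE of 0.09 (edgeR adjusted p = 0.0422). SLC2A3 and CA9 were the only 2 of the 38 genes called in that fit, where 0.488% of all genes were called as lower and 0.711% as higher. It gave 35 of the 38 genes an estimate below 0, against 48.8% of all genes, with a median of -0.09.

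SLC16A3, the lactate exporter MCT4, followed the end libraries instead. It had 407, 276 and 322 CPM in siNC and 357, 277 and 219 CPM in siXBP1 replicates 1 to 3, so the groups overlapped. Its log2 fold change was -0.23 (SE 0.18) with 6 libraries and 0.09 in the 4 middle ones. SLC2A1, the glucose transporter GLUT1, had means of 254 ± 33.4 CPM in siNC and 226 ± 22.8 in siXBP1 (SD, n = 3 each). Its log2 fold change of -0.17 (SE 0.12) was 0.01 in the 4 middle libraries.

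**Figure D3:**
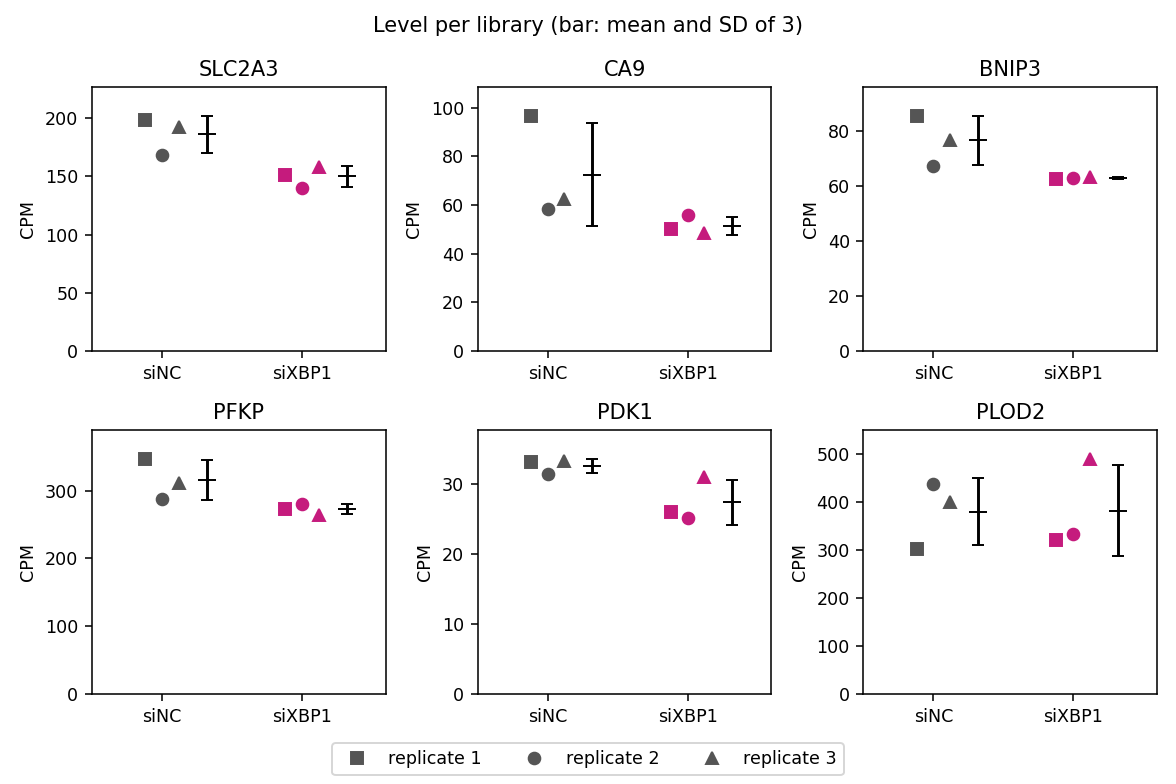
Level (CPM, axis from 0) of 6 genes in each library, with symbols for the replicate number and bars for the mean and SD of 3 libraries per group. The groups do not overlap for SLC2A3, CA9, BNIP3, PFKP and PDK1, while PLOD2 is lowest in siNC replicate 1 and highest in siXBP1 replicate 3.

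Of the genes for secreted and vascular factors, none kept its groups apart. VEGFA, the main angiogenic growth factor, had 385, 319 and 336 CPM in siNC and 373.5, 339.9 and 301 CPM in siXBP1 replicates 1 to 3. The 2 groups covered nearly the same range, with a log2 fold change of -0.03 (SE 0.11). ADM, which encodes the vasodilator peptide adrenomedullin, had 69.9 ± 26.4 and 53.1 ± 6.76 CPM (SD, n = 3 each), and ANGPTL4, an inhibitor of lipoprotein lipase, had 31.4 ± 14.3 and 25.7 ± 6.32 CPM. In siNC replicate 1 ADM exceeded the mean of the other siNC libraries by 0.81 and ANGPTL4 by 1.03 on the log2 CPM scale. In the 4 middle libraries their log2 fold changes were 0.004 and 0.24, where all 6 libraries had given -0.40 (SE 0.24) and -0.29 (SE 0.29).

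BNIP3, a receptor for removal of mitochondria (chromosome 10, 131967684 to 131981923), was tight within siXBP1. Its siNC libraries had 85.5, 67.4 and 76.9 CPM and its siXBP1 libraries 62.7, 63.1 and 63.4. All siXBP1 libraries lay within 1 CPM of each other and below all siNC libraries. The log2 fold change was -0.28 (SE 0.11, unadjusted p = 0.0314, adjusted p = 1 by edgeR), from -0.37 to -0.20 with each library left out, and -0.19 in the 4 middle libraries. BNIP3L, the related receptor NIX, had 76.9 ± 4.27 CPM in siNC and 75.55 ± 11.9 in siXBP1 (SD, n = 3 each). It was highest in siXBP1 replicate 3, with a log2 fold change of -0.02 (SE 0.13). NDRG1, a stress gene and the most counted of this role, had 635, 399 and 466 CPM in siNC and 511, 392 and 411 CPM in siXBP1 replicates 1 to 3. The groups overlapped, with siNC replicate 1 on top, and the log2 fold change went from -0.19 (SE 0.16) to 0.07 without both end libraries. HILPDA, a lipid droplet protein that inhibits lipolysis, had an estimate of -0.32 (SE 0.20) with all libraries and -0.10 in the 4 middle ones.

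All 10 genes of upper glycolysis and its control had estimates below 0, from -0.32 for PFKFB4 to -0.002 for HK1. The median was -0.10 with all libraries and -0.03 in the 4 middle libraries, where 6 of 10 were below 0. PFKP, the platelet form of phosphofructokinase, which commits sugar to glycolysis (chromosome 10, 3067548 to 3136805), was the 1 gene of the 10 without overlap. It had 347, 288 and 312 CPM in siNC and 273, 279.9 and 265 CPM in siXBP1 replicates 1 to 3. The gap between the lowest siNC and the highest siXBP1 library was small next to the spread within siNC. The log2 fold change was -0.21 (SE 0.09, unadjusted p = 0.05, adjusted p = 1 by edgeR), and -0.11 in the 4 middle libraries. PFKL, the liver form, had 83.6 ± 7.51 and 78.3 ± 5.73 CPM with overlap (SD, n = 3 each), and a log2 fold change of -0.09 (SE 0.11).

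Hexokinases, which trap glucose in the cell, had close means. HK1 had 162 ± 7.94 CPM in siNC and 161 ± 2.65 in siXBP1 (SD, n = 3 each), a difference of -0.002 in log2 (SE 0.09). HK2, the form induced by HIF, had 168 ± 7.75 and 154 ± 9.26 CPM and a log2 fold change of -0.12 (SE 0.09). The bifunctional enzymes PFKFB3 and PFKFB4 set the level of the activator of phosphofructokinase. They had estimates of -0.07 (SE 0.13) and -0.32 (SE 0.21), the latter -0.10 in the 4 middle libraries. ALDOA, the aldolase with the most counts of this role, had 1443, 1145 and 1225 CPM in siNC and 1269, 1321 and 1051 CPM in siXBP1 replicates 1 to 3. Its highest and lowest levels were in the end libraries, and its log2 fold change was -0.06 (SE 0.12) with all libraries and 0.13 in the 4 middle ones. GPI (-0.12, SE 0.09), TPI1 (-0.17, SE 0.10) and ALDOC (-0.02, SE 0.12) overlapped between groups as well.

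The 6 genes of lower glycolysis were all highest in siNC replicate 1 (24.1% of all genes tested were). In each, siNC replicate 1 was above and siXBP1 replicate 3 below the mean of the other libraries of its own group. The same held for 40.3% of all genes tested. The median departures were 0.26 and -0.16 on the log2 CPM scale. In siXBP1 replicate 3, PGK1 and ENO2 departed by only -0.01 and -0.02, and their lowest libraries were siXBP1 replicates 1 and 2, respectively. GAPDH, which makes the first high-energy phosphate intermediate of the pathway, had 6868, 5501 and 5808 CPM in siNC and 5778, 5973 and 5081 CPM in siXBP1 replicates 1 to 3. The 4 middle libraries interleaved, and the log2 fold change was -0.11 (SE 0.10) with all libraries and 0.06 without the ends. PGK1 (-0.13, SE 0.10), ENO1 (-0.09, SE 0.09), PKM (-0.07, SE 0.09) and PGAM1 (-0.06, SE 0.12) had similar small estimates. ENO2, the neuronal enolase, had the largest estimate of this role, -0.28 (SE 0.14), and -0.11 in the 4 middle libraries. The sum over the 6 genes ran from 11730 to 14370 CPM in siNC and from 10990 to 12590 in siXBP1, with GAPDH as its largest part. Several glycolytic genes have processed pseudogenes or near-identical copies, as PGAM1 has in PGAM4, and how the counting split shared reads is not given in the sources used here.

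Pyruvate either leaves as lactate or enters mitochondria. LDHA, which makes lactate, had 2388, 2185 and 2102 CPM in siNC and 2012, 2145 and 2003 CPM in siXBP1 replicates 1 to 3. Only siXBP1 replicate 2 reached into the siNC range, and the log2 fold change was -0.11 (SE 0.08). PDK1, the kinase that shuts the pyruvate dehydrogenase gate (chromosome 2, 172555373 to 172724312), had 33.2, 31.5 and 33.3 CPM in siNC and 26.1, 25.1 and 31.0 CPM in siXBP1 replicates 1 to 3. The siNC libraries were within 2 CPM of each other, and siXBP1 replicate 3 lay just under them. Its log2 fold change was -0.25 (SE 0.12, unadjusted p = 0.0594, adjusted p = 1 by edgeR) and -0.33 in the 4 middle libraries (edgeR adjusted p = 0.0902). Of the 5 genes without overlap, PDK1 had a larger and SLC2A3 nearly the same estimate in the 4 middle libraries, while those of CA9, BNIP3 and PFKP were smaller.

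The HIF feedback and chromatin genes split. EGLN1, the main oxygen sensor PHD2, had 216, 224 and 247 CPM in siNC and 241, 239.8 and 273 CPM in siXBP1 replicates 1 to 3. It had the highest estimate of the 38 genes, 0.14 (SE 0.09), with overlap. EGLN3, the hydroxylase PHD3 that HIF induces strongly, had 38.3, 17.8 and 28.4 CPM in siNC and 20.8, 16.8 and 20.02 CPM in siXBP1. EGLN3 was named after its values were seen. Its siNC libraries spread far wider than its siXBP1 libraries, and the log2 fold change of -0.55 (SE 0.24, unadjusted p = 0.0423, adjusted p = 1 by edgeR) was -0.29 in the 4 middle libraries. The histone demethylase gene KDM3A (-0.04, SE 0.10) and MXI1, a MYC antagonist (0.01, SE 0.11), had nearly equal means. ANKRD37, with 1.29 to 2.85 CPM in siNC and 0.928 to 2.18 in siXBP1, was the least counted of the 38. Its log2 fold change was -0.39, with a wide SE of 0.44.

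Of the 4 genes that modify collagen, 2 (PLOD2 and P4HA1) departed the other way in both end libraries. PLOD2, which hydroxylates collagen lysines (chromosome 3, 146069440 to 146161184), had 303, 437 and 399.8 CPM in siNC and 321, 334 and 490.3 CPM in siXBP1 replicates 1 to 3. Its lowest library was siNC replicate 1 and its highest siXBP1 replicate 3, the reverse of GAPDH. With all 6 libraries the log2 fold change was 0.008 (SE 0.18). In the 4 middle libraries, where both siXBP1 libraries lay below both siNC libraries, PLOD2 fell by 0.35 with an SE of 0.08 (edgeR adjusted p = 0.0104). SLC2A3 and PLOD2 were the 2 of the 38 genes called in that fit, which has 2 libraries per group and called 3.42% of all genes as lower and 1.45% as higher. In the fit with the covariate its log2 fold change was -0.11 with an SE of 0.06 (edgeR adjusted p = 0.434).

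LOX, which crosslinks collagen, and P4HA1, a prolyl hydroxylase subunit, were highest in siXBP1 replicate 3 as well, and both were named after their values were seen. LOX had 76.45, 77.3 and 70.0 CPM in siNC and 66.9, 65.8 and 99.4 CPM in siXBP1 replicates 1 to 3. P4HA1 had 76.8, 82.7 and 79.6 CPM in siNC and 65.6, 70.3 and 87.2 CPM in siXBP1. For both, siXBP1 replicates 1 and 2 lay below all siNC libraries and siXBP1 replicate 3 above them. The log2 fold changes were 0.05 (SE 0.16) and -0.10 (SE 0.12) with all libraries, and -0.15 and -0.25 in the 4 middle ones. P4HA2, another prolyl hydroxylase subunit, instead had siNC replicate 1 highest and siXBP1 replicate 3 lowest (-0.12, SE 0.14).

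**Figure D4:**
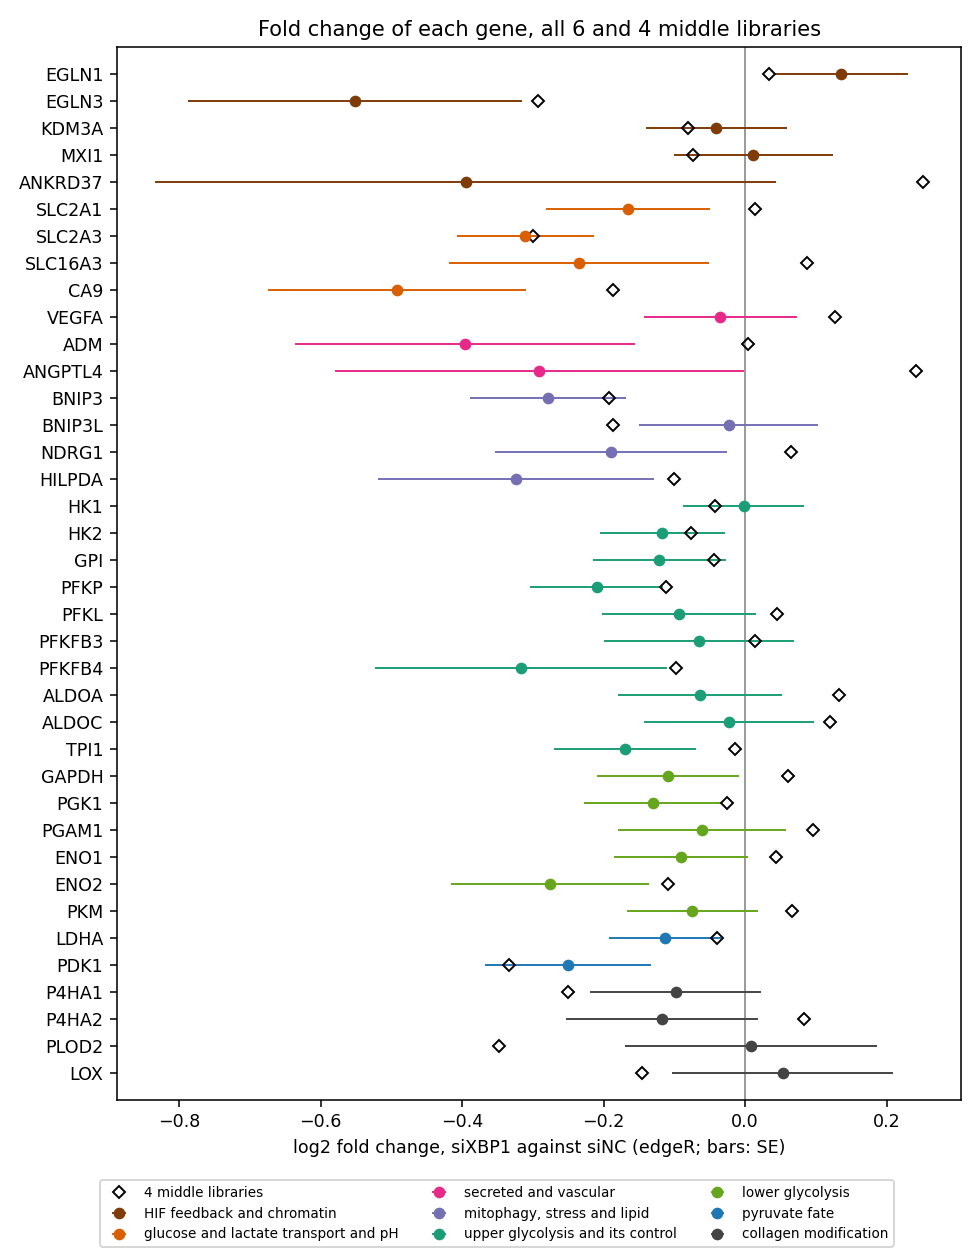
Log2 fold change of siXBP1 against siNC for each gene, with all 6 libraries (filled circles, bars showing the SE, colours giving the role) and with the 4 middle libraries (open diamonds). Of the 38 circles 34 lie below 0, against 21 of the diamonds.

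Departures of the end libraries from their own group involve no contrast between siRNAs. Of the 38 genes, 22 had siNC replicate 1 above the mean of the other siNC libraries together with siXBP1 replicate 3 below the mean of the other siXBP1 libraries (57.9%, against 40.3% of all genes tested). The reverse held for 6 (15.8%, against 37.3%): EGLN1, MXI1, BNIP3L, HK1, P4HA1 and PLOD2. The median departure was 0.25 (log2 CPM) for siNC replicate 1 and -0.05 for siXBP1 replicate 3, against 0.01 and -0.02 over all genes. The transport genes departed by medians of 0.38 and -0.16, and the secreted factors by 0.81 and -0.30. The summed markers of other epithelial lines, mostly KRT17 and KRT7, were also highest in siNC replicate 1 and lowest in siXBP1 replicate 3. Their part in these values was not tested.

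**Figure D5:**
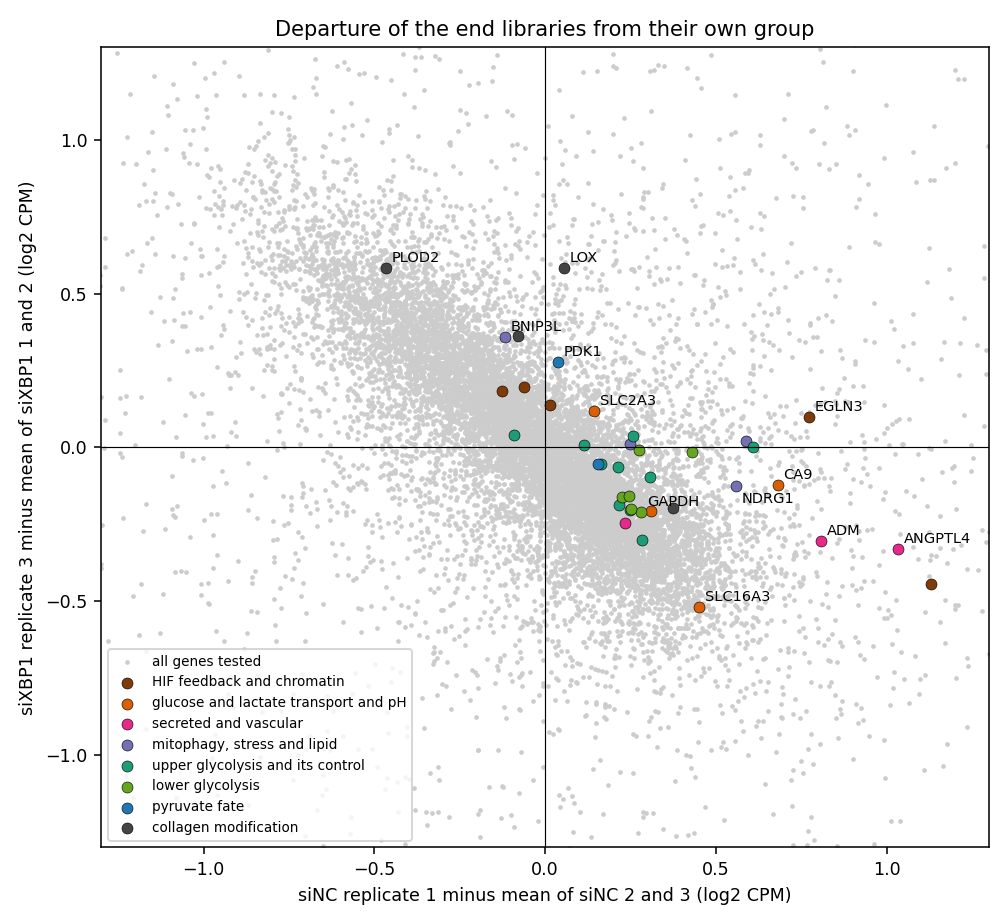
Departure of siNC replicate 1 from the mean of siNC replicates 2 and 3 (x axis) and of siXBP1 replicate 3 from the mean of siXBP1 replicates 1 and 2 (y axis), in log2 CPM, for all genes tested (grey, axes limited to 1.3 on each side) and the 38 genes (coloured by role). The lower right area holds 22 of the 38 and the upper left area 6.

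The factors that run the response had similar means in both groups. HIF1A had 793 CPM on average in siNC and 872 in siXBP1, with overlap, and a log2 fold change of 0.14 (SE 0.13). Its levels were 656, 891 and 832 CPM in siNC and 793, 805 and 1019 CPM in siXBP1 replicates 1 to 3. Its lowest library was siNC replicate 1 and its highest siXBP1 replicate 3, the reverse of GAPDH. Without both end libraries its log2 fold change was -0.10. EPAS1, which encodes HIF-2 alpha, had 427 CPM on average in siNC and 432 in siXBP1 (0.02, SE 0.08). Of 16 genes of the HIF machinery 15 were tested, of which 6 had lower and 9 higher estimates, and the groups overlapped for all 15. Messenger RNA gives no measure of HIF protein, whose level is set mostly by its destruction.

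A list of 34 other genes induced by hypoxia, of which 32 were tested, had 25 lower and 7 higher estimates with a median of -0.08. Groups did not overlap for 2 of them, VLDLR (-0.22, SE 0.13) and SPAG4 (-0.46, SE 0.17), both lower in siXBP1 (3.74% of all genes). STC2 (-0.09, SE 0.08) and TFRC (-0.01, SE 0.14) were the most counted. In the 4 middle libraries the median of this list was 0.00083, with 16 estimates below 0. DDIT4, ERO1A, STC2 and VLDLR are also known to respond to ER stress.

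Of 17 other tested enzymes of glycolysis and gluconeogenesis, 7 had lower and 10 higher estimates (median 0.03), with PFKFB2 (0.21, SE 0.12) and PFKM (0.03, SE 0.09) the most counted. Of 14 genes of pyruvate and lactate handling, 9 had lower and 5 higher estimates (median -0.02), with BSG, the chaperone of lactate transporters (-0.10, SE 0.12), and LDHB (-0.04, SE 0.10) the most counted. PDHA1, a subunit of pyruvate dehydrogenase, was the 1 gene of these 14 whose groups did not overlap (298 and 281 CPM on average, -0.08, SE 0.08), against 3.74% of all genes on the lower and 5.01% on the higher side. Of 5 other tested genes from the family of GLUT1 and GLUT3, 3 had lower estimates. The most counted were SLC2A6 (-0.08, SE 0.18) and SLC2A13 (0.39, SE 0.23), which had 0.21 and -0.07 in the 4 middle libraries. Of the 83 tested genes of these 5 lists, 0 passed edgeR's test, with or without the covariate (which called 1.20% of all genes), and 0 passed DESeq2 (0.112%). At an unadjusted p under 0.05, edgeR gave 2 of the 83, SPAG4 and PPFIA4 (-0.75, SE 0.34), both on the lower side, where 1.70% of all genes passed (1.90% on the higher side). That share is near the background.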

How the data were processed

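Reads per gene were measured in 6 RNA libraries, and the deposited values are whole-number counts per NCBI Gene ID, not normalized, per the file headers. For reads of this series, hg38, featureCounts 1.5.0 (Subread) and STAR 2.5.2a stand in the submitters' processing notes. Neither the annotation nor the strand setting is stated there. RefSeq names of GRCh38.p14 matched 18526 of 18555 IDs, and the other 29 held 0.00349% of counts. Of counts between 1 and 40, 75.8% to 80.5% were even, the pattern left by counting each mate of a pair, so fragments may be fewer than counts. Counting floors cover counting error only.

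Groups and replicate numbers came from sample titles. Genes were kept with filterByExpr, scaled with TMM and tested by edgeR's quasi-likelihood test (edgeR 4.0.16, R 4.3.3). The test was two-sided, the model held the group alone, and p-values had Benjamini-Hochberg adjustment over all genes tested. The SE is the size of the log2 fold change divided by the square root of F. CPM are counts over the library total. Principal components used the 11490 genes averaging 100 or more counts (log2 CPM), without XBP1 and the 38 genes. DESeq2 1.42.0, limma-voom (limma 3.58.1), other scalings and filters, a covariate, the replicate block and omitted libraries were alternatives. Non-overlap with libraries omitted was added after seeing the data. The main edgeR fit alone was tried on simulated counts without a gradient across libraries. That check does not cover the fits with the covariate or the 4 middle libraries.

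Members, lists and tests were chosen with earlier results of these data known. All members are accounted for. Values in every library are given for XBP1, members without overlap and a mean of at least 5 CPM, members called with or without the covariate, and the most counted of each role. Those of HIF1A are also given, a choice made after they were seen. Levels are per library, not per length, and are not compared between genes. From other lists, the 2 most counted genes and any called were named; SPAG4, VLDLR, PPFIA4 and PDHA1 were named after their values were seen.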

Additional observations from a re-analysis of the deposited data

How the results depend on the processing

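Without both end libraries (siNC replicate 1 and siXBP1 replicate 3) 702 genes passed, 209 higher and 493 lower, 2 of them among the 38 genes, against 1 and 0 with all libraries. Of the 38 genes, 21 then had lower estimates, 10 had groups without overlap on the lower side (24.7% of all genes do with 2 libraries per group), and 19 changed sign. These were MXI1 -0.07, ANKRD37 0.25, SLC2A1 0.01, SLC16A3 0.09, VEGFA 0.13, ADM 0.004, ANGPTL4 0.24, NDRG1 0.07, PFKL 0.05, PFKFB3 0.01, ALDOA 0.13, ALDOC 0.12, GAPDH 0.06, PGAM1 0.10, ENO1 0.04, PKM 0.07, P4HA2 0.08, PLOD2 -0.35 and LOX -0.15. With the first component as a covariate 172 genes passed, 2 of the 38 among them, and MXI1 (-0.02), VEGFA (0.02), ALDOC (0.03), PLOD2 (-0.11) and LOX (-0.03) changed sign. With each library left out in turn, signs differed for MXI1 (-0.07 to 0.07), ANKRD37 (-0.88 to 0.08), VEGFA (-0.11 to 0.04), ANGPTL4 (-0.55 to 0.13), NDRG1 (-0.34 to 0.02), PFKFB3 (-0.19 to 0.02), ALDOA (-0.14 to 0.03), ALDOC (-0.11 to 0.08), PGAM1 (-0.18 to 0.02), PKM (-0.15 to 0.01), P4HA2 (-0.20 to 0.01), PLOD2 (-0.22 to 0.12), BNIP3L (-0.16 to 0.08), HK1 (-0.04 to 0.03) and LOX (-0.18 to 0.15). Of these, 12 turned without siNC replicate 1. Members without overlap on the lower side then numbered 5 to 11, and by construction such a count can only grow when a library is left out. The same holds for all genes tested, of which 3.74% had no overlap on the lower side with all 6 libraries. The growth is therefore not read as a result about the members. In these fits the count of genes past the threshold was 0 to 1, and the log2 fold change of XBP1 -0.88 to -0.80. XBP1 lost its call in 4 of these 6 fits, those without replicate 2 or 3 of siNC or replicate 1 or 2 of siXBP1 (edgeR adjusted p from 0.175 to 0.475), with upper-quartile factors (-0.85, edgeR adjusted p = 0.0546, 0 genes passing) and at an adjusted p under 0.01 (-0.84, 0 genes passing). DESeq2 called 16 genes, and DESeq2, limma-voom, other scalings and filters and halved counts called 0 of the 38. PLOD2 was -0.0004 with upper-quartile factors, -0.0008 with limma-voom and -0.0004 with the replicate block, and no other sign changed in these fits. Replicate numbers pair libraries by number only: deviations from the group means correlated at 0.60, -0.36 and 0.43 for pairs 1 to 3, and siNC replicate 2 went best with siXBP1 replicate 3. With the replicate block 1 gene passed (XBP1, -0.84), 0 of the 38 did, and their median was -0.11. The cause of these differences was not tested. Depth limits ANKRD37 most, with 36 to 111 counts per library.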
